A study of Rattus norvegicus with 17 samples.

Results

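The granins and the enzymes that finish neuropeptides were followed across classes of rat sensory neurons. The set holds 10 genes chosen by name among 32883 gene rows, and all 10 had a row and passed the filter on low counts. They are the granins Chga, Chgb, Scg2, Scg3 and Vgf, the convertase chaperone Scg5, the convertases Pcsk1 and Pcsk2, the carboxypeptidase Cpe and the amidating enzyme Pam.

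The cells came from dorsal root ganglia of the lumbar spine of adult, naive, male SD rats of 200 g. They were dissociated, plated, picked singly with a mouth pipette and sequenced from the 3' end of their transcripts, with unique molecular identifiers (UMIs) to count molecules. The labels put 17 batches into 1 group, and there is no treated or mutant animal. Per the labels' protocols, fluorescently labelled neurons were picked 15 min after plating and neurons with neurites at 72 h, from 5 rats or more for each time. The labels do not tie a batch to a time or to rats, so time after plating and batch cannot be told apart. If a batch holds both times, they may be spread unequally over its gates, which a batch term would not remove. The part of time and of the way of picking in the gate differences was not tested. With the batch in the fit, p-values measure how differences between gates vary from batch to batch, and that spread may be technical.

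Of 1040 cells in the 16 batches used, 967 had at least 2000 genes and were kept, with 4307 to 1514406 UMIs each (median 139374). Neurons were assigned to gates by the level of 1 or 2 genes, in CPM, the UMIs of a gene scaled to a common total per cell. The 8 gates were Sst+Nppb, Trpm8, Clmp, Th, Ntsr1+Chrna3, Gzmbl3+Lpar3, Nmu+Lad1 and Pvalb+Vsnl1. In the strict gates both genes of a pair had to reach 20 CPM, or a single gene 30 CPM, and a cell that passed more than 1 gate entered none. By this rule 114 cells passed several gates and 387 passed none. UMIs were summed over the cells of a batch and gate wherever at least 3 cells were found, and the sum is the unit of replication. This gave 52 sums of 262282 to 6853404 UMIs: 12 for Sst+Nppb, 15 for Clmp, 3 for Th, 12 for Ntsr1+Chrna3, 8 for Gzmbl3+Lpar3, 1 each for Trpm8 and Nmu+Lad1, and 0 for Pvalb+Vsnl1. Because 3 gates were left with 1 sum or none, a second, wide rule was added after the cell numbers were seen. In it the summed level of the gate genes had to reach 60 CPM (30 CPM for 1 gene), a cell went to the gate it exceeded most, and sums of at least 2 cells were kept, which gave 91 sums with 6 to 16 per gate. Of the 705 cells in a wide gate, 241 passed more than 1 wide gate, and 1 gene of a pair could be enough to pass. The wide gates are thus less distinct than the strict ones. Levels are CPM after TMM scaling between sums.

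All 11 neuronal marker genes on the list were detected in each of the 5 gates with 3 or more strict sums, and their summed level was 4888 to 12620 CPM. The gates are named by their genes only, and their other markers overlapped. The markers listed for the Th gate did not set it apart, at 98.1 to 161 CPM in the Th sums and 84.2 to 297 CPM in the Gzmbl3+Lpar3 sums. Pooled over cells, the Th gate held 33.7 CPM of Ntsr1 and 49.3 CPM of Chrna3. The Ntsr1+Chrna3 gate held 73.7 and 97.8 CPM of them. Of its 68 cells, 35 had the lower of the gate genes within 2 times of the threshold. Core glial genes summed to 38.7 to 167 CPM in the Clmp sums (median 103), 87.1 to 176 CPM in the Th sums (median 165) and 31.3 to 97.5 CPM in the Gzmbl3+Lpar3 sums (median 65.8). Of 7 vessel genes 6 were in the counts, with Cldn5 at 0 in these gates, and they summed to 2.16 to 96.0 CPM in the Clmp sums (median 12.8) and 36.3 to 150 CPM in the Gzmbl3+Lpar3 sums (median 105). The part of both lists in the differences below was not tested. Sums hold RNA of several cells, so fewer cells with a transcript and less of it per cell cannot be told apart in them.

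Granins are acidic proteins that condense in the Golgi and the budding dense-core vesicle, and several of them are themselves cut into peptides. The convertases cut peptide precursors after pairs of basic residues, the carboxypeptidase trims the basic residues that remain, and the amidating enzyme converts a terminal glycine into an amide. In sensory neurons this route makes peptides such as CGRP and substance P, both of which end in an amide.

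The letters TGACGTCA, the palindromic full site bound by CREB-family factors, were searched in the members' promoter windows of 250 bases before to 50 bases after the start site, as given by RefSeq on GRCr8. Of the 10 members 8 had a window there, Chga and Pcsk1 being the others. Only 2 of these 8, Scg2 and Vgf, held the full site, which 1.83% of all 33469 windows hold, and 7 of 8 held the shorter TGACG on either strand, which 21.2% of all windows hold. The 5 letters are part of the full site, so the matches overlap. The 250 bases before the start of both genes are shown, with the full site in capitals. The levels of both genes are described below, and a link between the site and the levels was not tested. The Scg2 stretch is chr9:88256867-88257116 on the minus strand of GRCr8, and the first letter of the site lies 123 bases before the start. The Vgf stretch is chr12:25277021-25277270 on the minus strand, and the first letter lies 90 bases before the start.
Scg2: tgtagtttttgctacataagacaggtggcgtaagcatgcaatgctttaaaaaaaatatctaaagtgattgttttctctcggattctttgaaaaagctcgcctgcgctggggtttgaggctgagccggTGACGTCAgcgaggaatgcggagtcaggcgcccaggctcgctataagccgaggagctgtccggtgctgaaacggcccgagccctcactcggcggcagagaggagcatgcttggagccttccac
Vgf: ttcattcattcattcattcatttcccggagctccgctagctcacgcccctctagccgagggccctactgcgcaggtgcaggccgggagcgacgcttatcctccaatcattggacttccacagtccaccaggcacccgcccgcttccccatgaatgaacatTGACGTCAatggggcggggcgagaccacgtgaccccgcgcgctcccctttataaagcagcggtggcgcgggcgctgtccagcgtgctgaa
A match describes these letters only. Binding was not measured here.

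Across the gates, 8 of the 10 members differed in the strict sums (edgeR quasi-likelihood F-test over the gate terms with the batch in the fit, Benjamini-Hochberg adjusted p under 0.05, the threshold of every call below), where 23.1% of the 14718 genes tested were called. The smallest adjusted p belonged to Scg2 (1.4e-10), Pam (4.49e-08) and Vgf (1.51e-07). Cpe (0.000208), Scg5 (0.000305), Pcsk1 (0.000631), Chgb (0.00108) and Chga (0.0308) followed. Scg3 (0.356) and Pcsk2 (0.0858) did not pass. In the wide gates 9 of 10 were called, where 45.0% of 11674 genes were, and Scg3 was again the one that was not (adjusted p = 0.396).

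**Figure D1:**
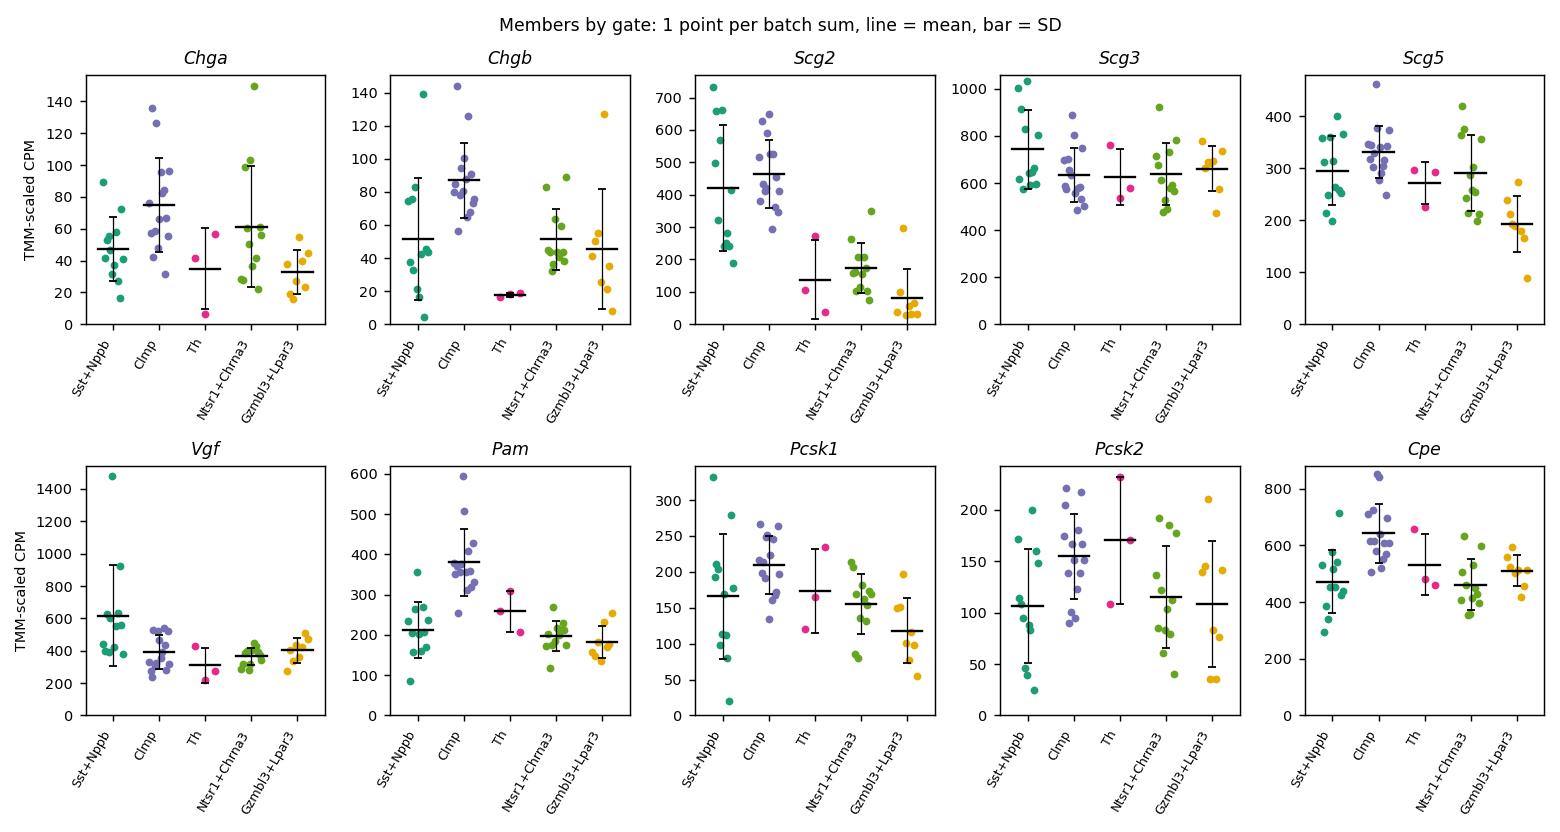
Level of each member (TMM-scaled CPM, linear axes from 0) in the 5 strict gates with at least 3 sums. Each point is the sum of 1 batch, the line is the mean and the bar is the SD. Scg2 is high in the Sst+Nppb and Clmp sums, Pam is highest in the Clmp sums, Vgf is highest in the Sst+Nppb sums, and Scg3 is at a like level in all 5.

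Scg2, secretogranin II, the precursor of secretoneurin, had the widest gap between gate means of the granins in the strict gates, though in the wide gates that of Chgb was wider. It ran from 190 to 734 CPM in the 12 Sst+Nppb sums (median 368) and from 295 to 648 CPM in the 15 Clmp sums (median 433). It ran from 76.1 to 349 CPM in the 12 Ntsr1+Chrna3 sums (median 160) and from 29.8 to 297 CPM in the 8 Gzmbl3+Lpar3 sums (median 46.9). The 3 Th sums held 105, 272 and 37.8 CPM. The Sst+Nppb and Clmp ranges overlapped widely. Of the 15 Clmp sums 14 were above every Gzmbl3+Lpar3 sum, and the 297 CPM of batch 24, a batch with no Clmp sum, stood alone in Gzmbl3+Lpar3.

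Scg2 was higher in Clmp than in Gzmbl3+Lpar3 sums by 2.89 ± 0.30 (log2 fold change ± SE; edgeR adjusted p = 6.83e-10), in 7 of the 7 batches with both. It was also higher in Sst+Nppb than in Gzmbl3+Lpar3 sums by 2.68 ± 0.30 (edgeR adjusted p = 2.81e-08; 7 of 7 batches). In the order of mean levels, Clmp (464 ± 105 CPM, SD, 15 sums) and its neighbour Sst+Nppb (422 ± 195 CPM, SD, 12 sums) did not differ beyond their spread (0.21 ± 0.22, edgeR adjusted p = 0.653). Sst+Nppb did exceed the next gate, Ntsr1+Chrna3 (1.14 ± 0.24, edgeR adjusted p = 0.0017; 9 of 10 batches). Ntsr1+Chrna3 exceeded Gzmbl3+Lpar3 by 1.54 ± 0.30 (edgeR adjusted p = 0.000709; 7 of 7 batches). Each of these calls held with every batch left out in turn. Clmp exceeded Th by 2.14 ± 0.47 (edgeR adjusted p = 0.0059; 3 of 3 batches), but this call was lost without batch 25 (adjusted p = 0.133) or batch 34 (adjusted p = 0.183). Th was not told apart from its neighbours Ntsr1+Chrna3 and Gzmbl3+Lpar3 (adjusted p of 0.911 and 0.535).

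The wide gates placed the rarer classes on the same scale. Scg2 held 69.4 to 1058 CPM in the 7 Trpm8 sums (median 587), 26.1 to 76.2 CPM in the 8 Nmu+Lad1 sums (median 52.4) and 11.8 to 207 CPM in the 6 Pvalb+Vsnl1 sums (median 122). All 8 Nmu+Lad1 sums thus lay below every wide Clmp and Sst+Nppb sum, of which the lowest held 199 CPM. Trpm8 exceeded the mean of the other gates by 1.73 ± 0.26 (edgeR adjusted p = 2.87e-06; higher in 5 of 7 batches), and Nmu+Lad1 was below it by a log2 fold change of -2.13 ± 0.32 (edgeR adjusted p = 1.27e-06; lower in 8 of 8 batches). The low sums of Trpm8 were those of batch 28-1 and batch 31, with 69.4 and 183 CPM.

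Vgf, a granin-like precursor induced by neurotrophins and cut into several active peptides, followed another order. The 12 Sst+Nppb sums held 378 to 1479 CPM (median 555), the 15 Clmp sums 240 to 543 CPM (median 358), the 12 Ntsr1+Chrna3 sums 284 to 445 CPM (median 379) and the 8 Gzmbl3+Lpar3 sums 275 to 509 CPM (median 416). The 3 Th sums held 428, 222 and 278 CPM. Of the 12 Sst+Nppb sums, 7 were above every Clmp sum, and the sum of batch 28-1 stood far above all others.

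Vgf was higher in Sst+Nppb than in Clmp sums by 0.53 ± 0.10 (edgeR adjusted p = 0.000397; 10 of 11 batches), and higher than in Ntsr1+Chrna3 sums by 0.60 ± 0.11 (edgeR adjusted p = 0.000406; 9 of 10 batches). Both calls held with each batch left out, the one of batch 28-1 included, and with equal weight of cells the second was lost (limma adjusted p = 0.0898). The difference between Sst+Nppb and Gzmbl3+Lpar3 (0.40 ± 0.13, edgeR adjusted p = 0.0451; 6 of 7 batches) was lost on leaving out any of 11 of the 16 batches, with adjusted p up to 0.143. It was called in the wide gates, with 0.46 ± 0.11 (edgeR adjusted p = 0.00259; 14 of 16 batches). Lower in the order, Gzmbl3+Lpar3 and Clmp, and Clmp and Ntsr1+Chrna3, did not differ beyond their spread (adjusted p of 0.525 and 0.754). In the wide gates Vgf was low in Th, at 178 to 358 CPM in 7 sums (median 259), and in Nmu+Lad1, at 188 to 361 CPM in 8 sums (median 278). Sst+Nppb exceeded Th there by 1.08 ± 0.16 (edgeR adjusted p = 1.18e-06; 7 of 7 batches) and Nmu+Lad1 by 0.93 ± 0.15 (edgeR adjusted p = 3.49e-06; 8 of 8 batches). Against the mean of the other gates Th had a log2 fold change of -0.48 ± 0.14 (edgeR adjusted p = 0.0413; lower in 6 of 7 batches), which was lost on leaving out any of 6 batches (adjusted p up to 0.178).

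**Figure D2:**
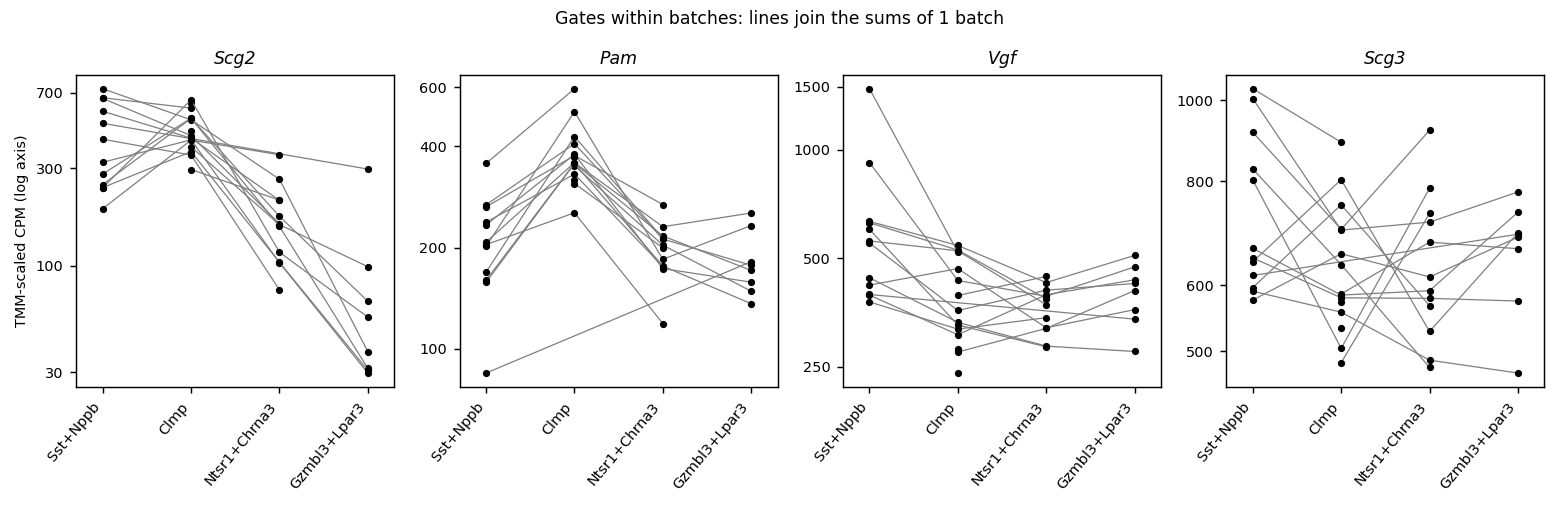
Level (TMM-scaled CPM, log axes) of Scg2, Pam, Vgf and Scg3 in the strict sums of Sst+Nppb, Clmp, Ntsr1+Chrna3 and Gzmbl3+Lpar3. Each line joins the sums of 1 batch and skips a gate with no sum in that batch. The Scg2 lines drop from Clmp to Gzmbl3+Lpar3 in all 7 batches with both. The Pam lines are highest at Clmp in every batch that has Clmp and another of these gates. The Scg3 lines cross without a common direction. Th is not drawn, and in batch 25 its Pam sum was slightly above that of Clmp.

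Chgb and Chga, chromogranin B and A, are the classical matrix proteins of dense-core vesicles. Chgb ran from 56.1 to 144 CPM in the Clmp sums (median 80.5), from 4.15 to 139 CPM in the Sst+Nppb sums (median 43.2), from 32.1 to 88.7 CPM in the Ntsr1+Chrna3 sums (median 43.7) and from 7.68 to 127 CPM in the Gzmbl3+Lpar3 sums (median 38.4). The 3 Th sums held 16.3, 18.1 and 18.9 CPM, below every Clmp and every Ntsr1+Chrna3 sum. Chga ran from 31.8 to 136 CPM in the Clmp sums (median 67.0) and from 15.8 to 54.9 CPM in the Gzmbl3+Lpar3 sums (median 32.3), and 12 of 15 Clmp sums were above every Gzmbl3+Lpar3 sum. Its 12 Sst+Nppb sums (16.6 to 89.6 CPM) and 12 Ntsr1+Chrna3 sums (22.2 to 150 CPM) overlapped both.

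Chgb was higher in Clmp than in Gzmbl3+Lpar3 sums by 1.08 ± 0.31 (edgeR adjusted p = 0.0105; 6 of 7 batches) and Chga by 0.99 ± 0.29 (edgeR adjusted p = 0.012; 6 of 7 batches). Without batch 29 the Chgb call was lost (adjusted p = 0.0526), and without batch 31 that of Chga (adjusted p = 0.0524). Chgb was higher in Clmp than in Th sums by 2.20 ± 0.51 (edgeR adjusted p = 0.0115, 3 of 3 batches). The call was lost without any of the 3 batches with a Th sum, 25, 33 and 34 (adjusted p of 0.0752 to 0.117). It was also lost with equal weight of cells (0.99 on the log2(CPM + 10) scale, limma adjusted p = 0.169). The Chgb differences of Clmp over Ntsr1+Chrna3 (0.74 ± 0.25) and of Sst+Nppb over Clmp (-0.79 ± 0.26), each with an edgeR adjusted p of 0.0418, were close to the threshold. They were lost on leaving out any of 8 and of 7 batches, with adjusted p up to 0.09 and 0.089, and both were lost under RLE scaling. With equal weight of cells the difference of Clmp over Ntsr1+Chrna3 was lost (limma adjusted p = 0.159). In the wide gates both were called, at 0.93 ± 0.27 (edgeR adjusted p = 0.0125) and -1.34 ± 0.28 (edgeR adjusted p = 0.000194; lower in Sst+Nppb in 15 of 15 batches).

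Both chromogranins were higher in the 6 wide Pvalb+Vsnl1 sums than in the mean of the other gates. Chgb held 70.3 to 1371 CPM there (median 173), and the highest value came from the 2 cells of batch 35. It exceeded the mean of the other gates by 2.11 ± 0.33 (edgeR adjusted p = 2.21e-06; 5 of 6 batches) and by 1.27 without batch 35, a weaker difference that was still called (adjusted p = 0.00735). Chga held 0 to 249 CPM (median 150), and exceeded the mean of the other gates by 1.03 ± 0.32 (edgeR adjusted p = 0.0196; 4 of 6 batches). That call was lost without batch 20, 27 or 34, with adjusted p up to 0.142. These sums hold 2 to 6 cells each, and the listed markers Spp1, Nefh, Runx3, Etv1, Ntrk3 and Atp1b1 summed to 21.9 to 3366 CPM in them, against up to 1963 CPM in the Trpm8 sums, so at least 1 sum lacked the marker profile of the gate. A list of 11 genes of glia summed to 10.9 to 2208 CPM in these sums (median 1495), against medians of 205 to 332 CPM and a highest sum of 732 CPM in the other gates. A core list of 5 glial genes summed to 5.47 to 181 CPM in these sums (median 46.4), against medians of 53.7 to 115 CPM in the other gates. Their part in the Chgb and Chga differences was not tested. In the wide Th sums Chgb was low, at 9.13 to 56.4 CPM (median 19.0), with -1.66 ± 0.38 against the mean of the other gates (edgeR adjusted p = 0.00539; lower in 7 of 7 batches), and this held with each batch left out. In the wide Trpm8 sums Chgb held 17.3 to 180 CPM (median 164). It was above the mean of the other gates by 0.97 ± 0.31 (edgeR adjusted p = 0.0427, 5 of 7 batches), a call lost on leaving out any of 8 batches (adjusted p up to 0.165). The 8 wide Nmu+Lad1 sums held 43.8 to 191 CPM of Chgb (median 120). The difference of Pvalb+Vsnl1 over Nmu+Lad1 was not called for Chgb (1.22 ± 0.45, edgeR adjusted p = 0.0597). Nor was it for Chga (0.82 ± 0.42, edgeR adjusted p = 0.208).

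**Figure D3:**
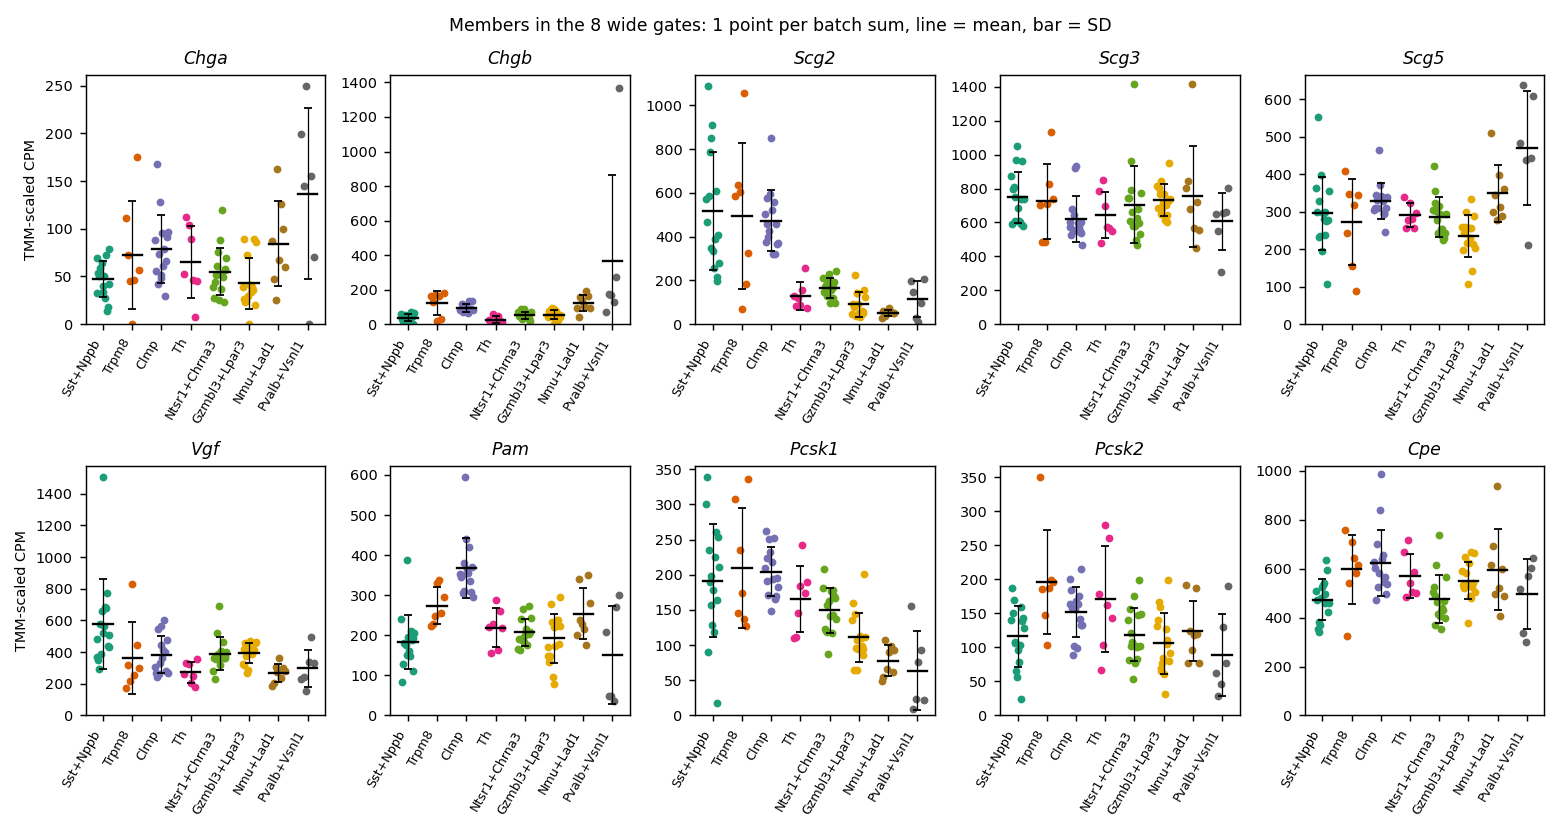
Level of each member (TMM-scaled CPM, linear axes from 0) in the 8 wide gates. Each point is the sum of 1 batch, the line is the mean and the bar is the SD. The mean of Chgb is highest in Pvalb+Vsnl1, where 1 sum reached 1371 CPM, that of Scg2 is lowest in Nmu+Lad1, and Pcsk1 is low in both gates.

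Scg3, secretogranin III, a membrane-bound granin that tethers other granins to the vesicle wall, was the most even member. Its strict sums ran from 471 to 1033 CPM. In the 5 gates with 3 or more sums the means lay between 626 CPM (Th) and 743 CPM (Sst+Nppb), and the lone Nmu+Lad1 sum held 826 CPM. None of its 10 pairs among the 5 strict gates and none of its 28 wide pairs was called. Clmp and Ntsr1+Chrna3 differed by -0.02 ± 0.09 (edgeR adjusted p = 0.954), with 6 of 12 batches in each direction, and Sst+Nppb and Clmp by 0.18 ± 0.09 (edgeR adjusted p = 0.212; higher in Sst+Nppb in 8 of 11 batches). The highest wide sums were those of batch 26 in Nmu+Lad1 and of batch 28-1 in Ntsr1+Chrna3, both near 1416 CPM.

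Scg5, which encodes the chaperone 7B2 that escorts Pcsk2 to the vesicle and inhibits it on the way, was lowest in Gzmbl3+Lpar3. It held 198 to 401 CPM in the Sst+Nppb sums (median 288), 249 to 462 CPM in the Clmp sums (median 329) and 198 to 419 CPM in the Ntsr1+Chrna3 sums (median 272). The Th sums held 297, 226 and 294 CPM, and the 8 Gzmbl3+Lpar3 sums 88.9 to 273 CPM (median 191). Of the 15 Clmp sums 14 were above every Gzmbl3+Lpar3 sum. Scg5 was higher in Clmp than in Gzmbl3+Lpar3 by 0.86 ± 0.14 (edgeR adjusted p = 1.13e-05; 7 of 7 batches), in Sst+Nppb by 0.65 ± 0.14 (edgeR adjusted p = 0.00221; 7 of 7) and in Ntsr1+Chrna3 by 0.60 ± 0.14 (edgeR adjusted p = 0.00562; 7 of 7). With wide gates the first was 0.50 ± 0.12 and still called (edgeR adjusted p = 0.000597), and the others were 0.30 and 0.28 and not called (edgeR adjusted p of 0.0767 and 0.129). With equal weight of cells the Sst+Nppb difference was 0.41 on the log2(CPM + 10) scale and not called (limma adjusted p = 0.0864). Wide Pvalb+Vsnl1 sums held 212 to 638 CPM (median 463), above the mean of the other gates by 0.53 ± 0.15 (edgeR adjusted p = 0.00826; 5 of 6 batches), and without batch 35 this was not called (adjusted p = 0.0766).

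Pcsk1 and Pcsk2 encode the prohormone convertases PC1/3 and PC2, which open the precursors. Pcsk1 held 135 to 267 CPM in the Clmp sums (median 214), 54.9 to 197 CPM in the Gzmbl3+Lpar3 sums (median 109), 20.8 to 332 CPM in the Sst+Nppb sums (median 173) and 79.4 to 214 CPM in the Ntsr1+Chrna3 sums (median 165). The Th sums held 120, 165 and 235 CPM. Of its 10 pairs only Clmp over Gzmbl3+Lpar3 was called, with 1.01 ± 0.21 (edgeR adjusted p = 0.000331; 7 of 7 batches), and it held with each batch left out. It was not called when each cell had equal weight (0.56 on the log2(CPM + 10) scale, limma adjusted p = 0.123).

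In the wide gates the 7 Trpm8 sums of Pcsk1 held 128 to 336 CPM (median 173), the 8 Nmu+Lad1 sums 48.5 to 107 CPM (median 78.3) and the 6 Pvalb+Vsnl1 sums 9.67 to 156 CPM (median 50.2). Trpm8 was above the mean of the other gates by 0.63 ± 0.19 (edgeR adjusted p = 0.0318; 5 of 7 batches), which was lost without batch 20, 26 or 34 (adjusted p up to 0.15). Nmu+Lad1 was below the mean of the other gates by a log2 fold change of -0.80 ± 0.20 (edgeR adjusted p = 0.00512; lower in 8 of 8 batches), which was lost without batch 20 (adjusted p = 0.0576). Pvalb+Vsnl1 was below it by a log2 fold change of -1.26 ± 0.25 (edgeR adjusted p = 0.000205; lower in 6 of 6 batches), which held with each batch left out. Clmp exceeded Nmu+Lad1 by 1.33 ± 0.22 (edgeR adjusted p = 4.93e-06; 8 of 8 batches), and every wide Clmp sum (148 CPM or more) was above every Nmu+Lad1 sum.

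Pcsk2 ran from 90.0 to 221 CPM in the Clmp sums (median 152), from 24.9 to 200 CPM in the Sst+Nppb sums (median 101), from 40.4 to 192 CPM in the Ntsr1+Chrna3 sums (median 108) and from 35.5 to 211 CPM in the Gzmbl3+Lpar3 sums (median 111). The Th sums held 109, 232 and 170 CPM, so all ranges overlapped, and none of the 10 strict pairs was called. The difference between Clmp and Gzmbl3+Lpar3, 0.61 ± 0.27 in the strict sums (edgeR adjusted p = 0.111; 6 of 7 batches), was 0.59 ± 0.16 and called in the wide ones (edgeR adjusted p = 0.00412; 15 of 15). Wide Trpm8 sums held 104 to 350 CPM (median 187) and exceeded the mean of the other gates by 0.75 ± 0.19 (edgeR adjusted p = 0.00868; 6 of 7 batches). Without batch 20, which held the 350 CPM, the difference was 0.58 and not called (adjusted p = 0.129).

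Cpe, the carboxypeptidase that removes the basic residues left by the convertases, changed little in size. It held 506 to 853 CPM in the Clmp sums (median 614), 295 to 715 CPM in the Sst+Nppb sums (median 453), 353 to 632 CPM in the Ntsr1+Chrna3 sums (median 439) and 417 to 594 CPM in the Gzmbl3+Lpar3 sums (median 513). The Th sums held 656, 480 and 461 CPM. Clmp exceeded Ntsr1+Chrna3 by 0.49 ± 0.10 (edgeR adjusted p = 0.000567; 11 of 12 batches), and Sst+Nppb was below Clmp by a log2 fold change of -0.48 ± 0.10 (edgeR adjusted p = 0.00112; lower in 10 of 11 batches). Both held with each batch left out.

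Pam, which makes the terminal amide that CGRP and substance P need for their activity, was highest in the Clmp gate. It held 254 to 594 CPM in the 15 Clmp sums (median 358), 84.7 to 356 CPM in the 12 Sst+Nppb sums (median 206), 119 to 269 CPM in the 12 Ntsr1+Chrna3 sums (median 202) and 136 to 254 CPM in the 8 Gzmbl3+Lpar3 sums (median 174). The Th sums held 259, 309 and 207 CPM. All 15 Clmp sums were above every Gzmbl3+Lpar3 sum and 14 of them above every Ntsr1+Chrna3 sum.

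Pam was higher in Clmp than in Gzmbl3+Lpar3 sums by 0.95 ± 0.14 (edgeR adjusted p = 1.09e-06; 7 of 7 batches) and than in Ntsr1+Chrna3 sums by 0.88 ± 0.11 (edgeR adjusted p = 1.19e-07; 12 of 12). Sst+Nppb was below Clmp by a log2 fold change of -0.85 ± 0.11 (edgeR adjusted p = 3.9e-07; lower in 11 of 11). All 3 held with each batch left out. Clmp and the next gate, Th, did not differ beyond their spread (adjusted p = 0.491), nor did the further neighbours Th, Sst+Nppb, Ntsr1+Chrna3 and Gzmbl3+Lpar3 (adjusted p of 0.314 to 0.959). Sst+Nppb and Clmp, not told apart by Scg2, thus differed in Pam and in Vgf, in opposite directions. In the wide Pvalb+Vsnl1 sums Pam held 35.3 to 300 CPM (median 128), below the mean of the other gates by a log2 fold change of -0.63 ± 0.22 (edgeR adjusted p = 0.0399; lower in 4 of 6 batches), and the call was lost under RLE scaling (adjusted p = 0.0847) and without batch 23, 27, 29 or 32 (adjusted p up to 0.27).

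**Figure D4:**
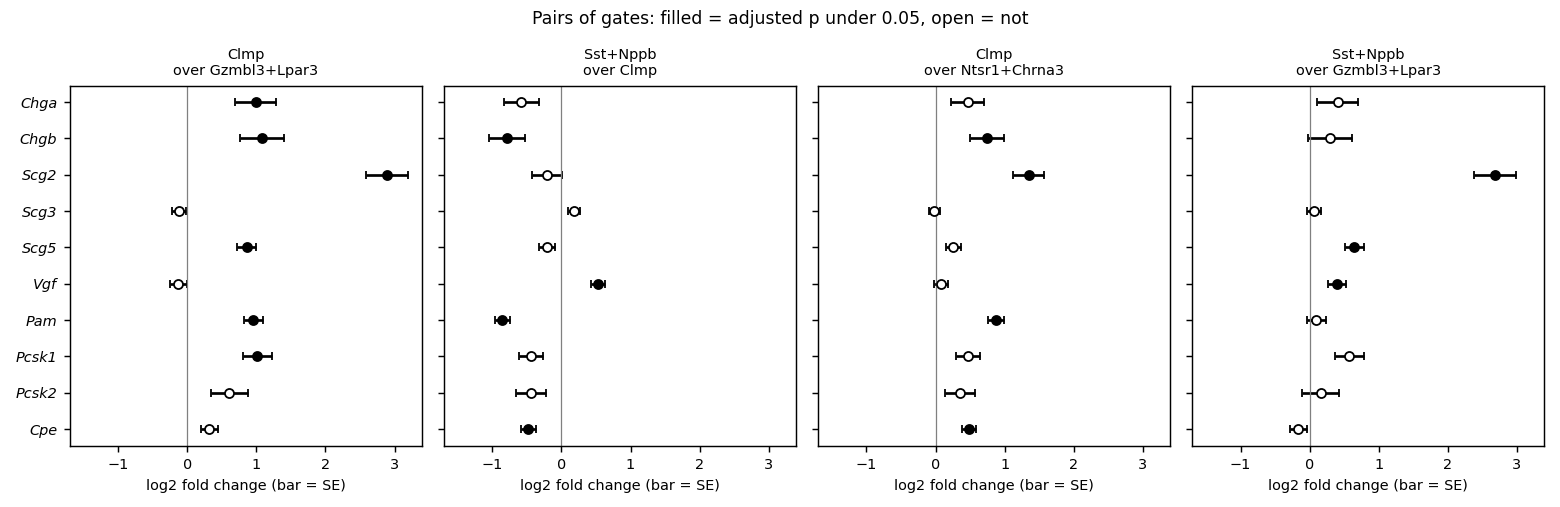
Log2 fold change between pairs of strict gates for the 10 members, first gate over second, from the edgeR fit with the batch as a term. Bars are the SE, filled points have an adjusted p under 0.05 and open points do not. Scg2 stands at 2.89 in Clmp over Gzmbl3+Lpar3, and Pam (-0.85) and Vgf (0.53) move apart in Sst+Nppb over Clmp.

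Read pair by pair, Clmp over Gzmbl3+Lpar3 had 6 of the 10 members higher, where 8.91% of all genes were, and 0 lower, where 9.17% were. The members' median was 0.90 there and that of all genes 0.05. Clmp over Ntsr1+Chrna3 had 4 members higher (5.52% of all genes) and 0 lower (5.52%), with medians of 0.47 for the members and 0.0050 for all genes. Sst+Nppb over Clmp had 1 member higher (4.91% of all genes) and 3 lower (4.04%), with medians of -0.44 and -0.02. Sst+Nppb over Gzmbl3+Lpar3 had 3 higher (3.50%) and 0 lower (2.91%). Sst+Nppb over Ntsr1+Chrna3 had 2 higher (3.06%) and 0 lower (1.66%), and Ntsr1+Chrna3 over Gzmbl3+Lpar3 had 2 higher (3.21%) and 0 lower (3.19%). Clmp over Th had 2 higher (0.883%) and 0 lower (0.985%), and Sst+Nppb over Th had 2 higher (0.761%) and 0 lower (0.347%). Th over Ntsr1+Chrna3 and Th over Gzmbl3+Lpar3 had 0 of 10 called in either direction (0.00679% and 1.59% of all genes). Pairs share sums, so these counts are not independent of each other.

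Each gate was also set against the mean of the others. In the strict sums 4 members were called for Sst+Nppb (5.12% of all genes), 4 for Clmp (5.70%), 2 for Ntsr1+Chrna3 (2.32%), 4 for Gzmbl3+Lpar3 (12.0%) and 0 for Th (0.197%). These means give the lone Trpm8 and Nmu+Lad1 sums, of 3 cells each, the same weight as the other gates. For Vgf the lone Trpm8 sum held 60.2 CPM, and Clmp and Gzmbl3+Lpar3 came out above the mean of the others by 0.49 and 0.64, although Clmp was higher in only 6 of 14 batches and Gzmbl3+Lpar3 in 2 of 8. Without batch 20, which held that sum and sums of 4 other gates, they were 0.11 (adjusted p = 0.647) and 0.32 (adjusted p = 0.142). In the wide gates 5 members were called for Sst+Nppb (14.5% of all genes), 4 for Trpm8 (6.72%), 3 for Clmp (12.0%), 2 for Th (2.14%), 1 for Ntsr1+Chrna3 (5.04%), 5 for Gzmbl3+Lpar3 (21.5%), 2 for Nmu+Lad1 (7.63%) and 5 for Pvalb+Vsnl1 (13.7%).

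Within a gate, members varied from cell to cell. After each cell was thinned to 30000 UMIs, the 176 Clmp cells deep enough held a median of 13 Scg2 UMIs (10th to 90th percentile 3 to 28), and 5 of them held none. The 51 Gzmbl3+Lpar3 cells held a median of 1 (0 to 5), and 14 of them held none. For Scg3 both gates had a median of 20 UMIs, and 0 cells of either were without one. For Chgb 41 of the 176 Clmp cells and 26 of the 51 Gzmbl3+Lpar3 cells held none at this depth, which limits detected UMIs and not expression.

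Centred within batch and gate, 369 thinned cells gave weak correlations between members on the log scale. The highest Pearson r was 0.34, between Scg3 and Cpe, followed by Scg2 with Pam (0.28) and Scg2 with Pcsk1 (0.27), and the lowest was -0.21, between Chga and Scg3. Pcsk2 and its chaperone Scg5 had an r of 0.02. The cells share libraries and counting error, so these values are a description. Across the 52 sums, centred within batch, the highest r were 0.66 for Pam with Cpe and 0.57 for Pcsk1 with Pcsk2, and the lowest was -0.35 for Vgf with Pcsk2.

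**Figure D5:**
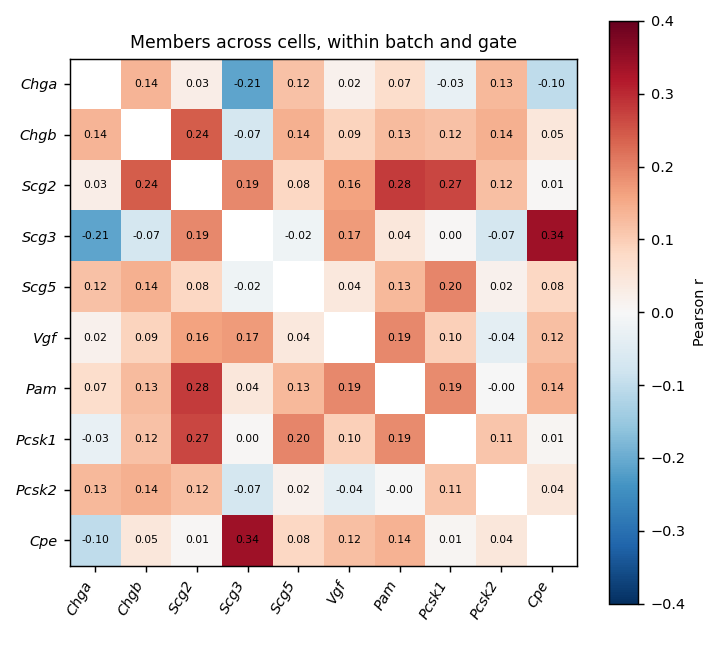
Pearson correlation of log2(UMIs + 1) between members over 369 cells thinned to 30000 UMIs and centred within batch and gate (colour scale and numbers). Scg3 with Cpe is highest at 0.34 and Chga with Scg3 lowest at -0.21.

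By the correlation of log2(CPM + 1) over the 52 sums, centred within batch, the genes most like Scg2 were Gstm7 (r = 0.84), Ndn (0.83) and Asph (0.80). Those most like Pam were Myc (0.81), Fam20c (0.78) and Crabp1 (0.76), and those most like Vgf were Prkar2b (0.76), Zdhhc2 (0.75) and Stk40 (0.75). The lists for the other members opened with Nrdc for Chga (0.62), Fdft1 for Chgb (0.72), Lamp1 for Scg3 (0.77), Tecr for Scg5 (0.81), Samd9 for Pcsk1 (0.79), Smdt1 for Pcsk2 (0.81) and Stmn1 for Cpe (0.79). The sums share batches and differ in depth, and the values are a description.

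The rest of the peptide pathway was read from 4 lists, against the 23.1% of all genes called among the strict gates. The adjusted p beside each gene is of the test over all gate terms, the lone Trpm8 and Nmu+Lad1 sums included. It is not a test between the gates whose means are named. Of the peptide precursors that are not gate genes, 12 of 16 tested were called. Of those named below, Tac1 stood at 665 and 7.22 CPM in the lone Trpm8 and Nmu+Lad1 sums, and Calcb at 55.0 and 2.41 CPM. Tac1, the precursor of substance P, averaged 353 CPM in Sst+Nppb, 503 CPM in Clmp, 98.4 CPM in Th, 103 CPM in Ntsr1+Chrna3 and 77.0 CPM in Gzmbl3+Lpar3 (edgeR adjusted p = 7.17e-12 among gates), the same order of means as for Scg2. Calcb, a CGRP precursor, averaged 208 CPM in Sst+Nppb, 75.4 CPM in Clmp and 152 CPM in Ntsr1+Chrna3 (edgeR adjusted p = 0.0017). Nts, the neurotensin precursor, averaged 150 CPM in Th and 7.29 CPM in Clmp, with 534 CPM in the lone Trpm8 sum (edgeR adjusted p = 4.25e-06). Pdyn, the dynorphin precursor, averaged 0.470 to 11.7 CPM in the 5 gates with 3 or more sums, and stood at 52.9 CPM in the lone Nmu+Lad1 sum (edgeR adjusted p = 0.00944).

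Among the genes of dense-core vesicle formation and release, 10 of 27 tested were called among gates. Of those named below, the lone Trpm8 sum held 10.5 CPM of Rab27b, 0 of Rab27a, 2.62 of Rab3b and 2.62 of Ptprn2. The lone Nmu+Lad1 sum held 1.20, 1.20, 0 and 57.7 CPM of them. Rab27b, a Rab GTPase of secretory vesicles, averaged 57.5 CPM in Sst+Nppb, 30.7 CPM in Clmp, 101 CPM in Th, 70.2 CPM in Ntsr1+Chrna3 and 79.5 CPM in Gzmbl3+Lpar3 (edgeR adjusted p = 6.37e-05), lowest in Clmp among these 5, where the Scg2 and Pam means were highest. Its relative Rab27a averaged 8.73 CPM in Clmp and 29.1 CPM in Ntsr1+Chrna3 (edgeR adjusted p = 0.00341). Rab3b, a Rab GTPase of regulated exocytosis, averaged 2.87 CPM in Sst+Nppb and 13.7 CPM in Clmp (edgeR adjusted p = 0.00971). Ptprn2, the vesicle membrane protein phogrin, averaged 59.8 CPM in Clmp and 37.1 CPM in Gzmbl3+Lpar3 (edgeR adjusted p = 0.0268).

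Of the other convertases and finishing enzymes 4 of 14 tested were called. In the lone Trpm8 and Nmu+Lad1 sums Pcsk6 stood at 0 and 27.7 CPM, and Slc31a1 at 7.85 and 12.0 CPM. Ece2, a degrading enzyme named below, stood at 15.7 and 2.41 CPM in them. Pcsk6, the convertase PACE4, averaged 5.75 CPM in Clmp, against 30.5 CPM in Ntsr1+Chrna3 and 22.9 CPM in Gzmbl3+Lpar3 (edgeR adjusted p = 0.000289). Slc31a1, the copper importer CTR1 (Pam is a copper enzyme), averaged 16.3 CPM in Clmp and 89.2 CPM in Gzmbl3+Lpar3 (edgeR adjusted p = 8.21e-05), and Pam averaged 380 CPM and 182 CPM in the same gates. Cpd, a carboxypeptidase of the Golgi, averaged 39.9 CPM in Clmp and 73.7 CPM in Gzmbl3+Lpar3 (edgeR adjusted p = 0.0219). Ctsl, a cathepsin, averaged 1334 CPM in Sst+Nppb and 839 CPM in Clmp (edgeR adjusted p = 8.79e-05). Of the peptide-degrading enzymes 1 of 10 was called: Ece2 averaged 43.9 CPM in Clmp and 14.0 CPM in Gzmbl3+Lpar3 (edgeR adjusted p = 0.000624).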

How the data were processed

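Neurons of 17 labelled batches (1080 labelled cells, 1 group) were read from tables of UMI counts per gene and cell, as deposited by the authors. Per the labels' protocols a modified Smart-seq2 method with cell barcodes of 8 nt and UMIs of 8 nt was used, so counts are of molecules near the 3' end, and amplification copies were collapsed. The submitters' processing notes name UMI-tools, STAR, featureCounts, Subread, SAMtools and the build Rnor_6.0; versions and the strand setting are not given in the sources used here, so reads of a gene and of an antisense partner may not be told apart. The table of batch 21 holds the same 96 cell names and counts as that of batch 20, and was left out. Batch 21 has 40 cells by its label, which are not analysed here. Batch totals were 3812280 to 26065847 UMIs.

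The UMIs were summed per batch and gate and tested with edgeR 4.0.16 (TMM scaling, a filterByExpr floor of 10 counts, legacy quasi-likelihood, gate and batch as terms). Benjamini-Hochberg adjustment ran over all genes that passed the filter, gate genes included, with a threshold of 0.05. The gate genes were then left out of the counts and shares of genes tested and called. The batch is a block because gates of 1 batch share a library. Cell depth differs between gates, with a median of 126183 UMIs in Sst+Nppb cells and 381095 in Gzmbl3+Lpar3 cells, and sums of few cells are less precise. Alternatives used limma 3.58.1 and DESeq2 1.42.0 in R 4.3.3, and Python 3.11.15 with numpy 2.4.6, pandas 2.3.3 and matplotlib 3.10.9 did the rest. The edgeR fit was tested on counts simulated without batch differences, for 1 comparison only, Clmp against the mean of the other gates. The other steps were not tested in this way. The members, gates and lists were chosen with earlier results of these data known. All members were named in every comparison; of each pathway list up to 4 genes called among gates with the widest gap between gate means, and for each member the 3 genes with the highest correlation, were named. The wide gates and all alternatives on them, and leaving out batches for pairs of gates, were chosen after seeing the data. Cells were not screened for doublets, and the 114 cells in several strict gates were left out.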

Additional observations from a re-analysis of the deposited data

Results flagged for a closer look

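Among 50 groups of 4 to 10 sums, 6 held a sum far from the others of its gate, each the highest of its group. The threshold used flags about 1 in 20 groups of independent, normally spread values. CPM of few cells need not be spread so, and the groups share sums, so the count cannot be set against that rate. In the strict Gzmbl3+Lpar3 sums, Scg2 stood at 297 CPM in batch 24 (the other 7 sums at 29.8 to 98.8 CPM), and Chgb at 127 CPM in batch 28-3 (the other 7 at 7.68 to 55.3 CPM). In the wide Trpm8 sums, Vgf stood at 833 CPM in batch 28-1 (the other 6 at 174 to 447 CPM), and Pcsk2 at 350.4 CPM in batch 20 (the other 6 at 104 to 199 CPM). In the wide Nmu+Lad1 sums, Scg3 stood at 1417 CPM in batch 26 (the other 7 at 450.3 to 844 CPM). In the wide Pvalb+Vsnl1 sums, Chgb stood at 1371 CPM in batch 35 (the other 5 at 70.3 to 273 CPM). Groups of 3 sums and of more than 10 were not tested in this way.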

How the results depend on the processing

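Of 1141 recalculations over 52 called member comparisons, 991 kept the call and the direction, 147 lost the call and 3 reversed. The cause was not tested. For each comparison, 16 recalculations left out a batch in turn and shared most sums with the main fit. Batches 28-1 and 28-3, whose names share a number, were treated as separate batches and were not left out together. The total mixes these with changes of processing. Pairs of gates were otherwise tried only with RLE scaling, no replicate block, equal weight of cells and wide gates. They were not tried with voom, DESeq2, thinned cells, other thresholds, 5 cells per sum or without cells rich in glial RNA. Strict gates against the others had 14 other settings, wide ones RLE scaling only. The count of members called among gates was 7 to 9 on leaving out each batch, and 9 without the replicate block. Gates of a batch share its library, and without the block the called pairs numbered 23, against 25 with it; leaving out batches gave 19 to 25. Without the block, the Chgb difference of Sst+Nppb over Clmp (adjusted p = 0.0517) and the Scg2 and Vgf differences of Sst+Nppb over Th (0.0812 and 0.0548) were lost.

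Counts against the mean of the other gates moved more. For Th (0) the count was 1 with no filter on low counts, with DESeq2 and without the block, and 2 with wide gates. For Ntsr1+Chrna3 (2) it was 1 with voom, bias-adjusted deviance, no block, thinned cells, doubled gate thresholds, cells of several gates assigned, equal weight of cells and wide gates, and 0 with at least 5 cells per sum, halved thresholds and without cells rich in glial or haemoglobin RNA. For Sst+Nppb (4) it was 2 with 5 cells and with halved or doubled thresholds. For Clmp (4) it was 7 with 5 cells, and 2 with doubled thresholds and equal weight of cells. For Gzmbl3+Lpar3 (4) it was 2 with 5 cells, halved thresholds and cells of several gates assigned. Leaving out each batch gave 2 to 4 for Sst+Nppb, 4 to 5 for Clmp, 0 to 0 for Th, 0 to 3 for Ntsr1+Chrna3 and 2 to 5 for Gzmbl3+Lpar3, and in the wide gates 1 to 5 for Trpm8, 1 to 2 for Th, 1 to 3 for Nmu+Lad1 and 3 to 6 for Pvalb+Vsnl1. With 5 cells per sum, Vgf against the mean of the others was -0.23 in Clmp and -0.068 in Gzmbl3+Lpar3, and with halved thresholds Pam in Ntsr1+Chrna3 was 0.12. Over all genes, the number called among gates ran from 1860 to 6449. Against the mean of the others it ran from 269 to 2879 for Sst+Nppb, 404 to 2465 for Clmp and 0 to 250 for Th. It ran from 118 to 863 for Ntsr1+Chrna3 and from 351 to 2505 for Gzmbl3+Lpar3. The share of all genes called also moved with the setting, so the counts of members above cannot be read alone.

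Depth limits members with few UMIs, such as Chgb, of which thinned cells hold a median of 0 to 4 in each gate. Few sums limit Th, Trpm8, Nmu+Lad1 and Pvalb+Vsnl1.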
